A study of Mus musculus with 10 samples.

Results

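The type I interferon response genes are a list of 38 genes whose transcription rises when interferon alpha or beta binds its receptor. They were taken by symbol from the gene table of an scRNA-seq series of mouse breast tumors. Of the 38, 37 had a row among the 31053 genes of the series, and Mx2 was not analysed here. The rule names genes and uses no level, but the members were chosen with earlier results of these data known. Counts of members set beside all genes below are therefore description and not a test of the list. The list holds 5 genes of the IFIT family, 3 of the ISG15 system, 5 of the OAS family, Mx1 and 12 further antiviral effectors. A further 4 were listed under sensing of RNA and DNA (Ddx60, Zbp1, Ifi205 and Ifi35). The rest were 4 PARP and DTX genes and 3 others.

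The tumors were grown from E0771 cells, a mammary carcinoma line from C57BL/6 mice, injected into the fourth mammary fat pad of female mice 16 weeks old and collected on day 21. EC-AGO1-KO mice carried floxed AGO1 alleles and a Cre driven by the VE-Cadherin promoter, which acts in endothelial cells, and WT littermates were the controls. The implanted tumor cells were the same E0771 line in both groups and carried no deletion. Each group had 5 libraries, from 5 WT tumors and 7 KO tumors, because the libraries KO 2+3 and KO 5+6 each pooled 2 tumors. The libraries were read in 2 batches on different NovaSeq sequencers, with 1 library per group in batch 1 and 4 per group in batch 2.

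Interferons alpha and beta bind a receptor of the chains IFNAR1 and IFNAR2, which activates the kinases JAK1 and TYK2. These phosphorylate transcription factors such as STAT2, which act with IRF9 and bind interferon-stimulated response elements in promoters. The induced proteins block viral entry, translation and replication, and several of them sense foreign nucleic acid or limit the signal itself. Tumor, myeloid and endothelial cells can all respond, and in tumors the response is known to be set off by DNA or RNA from damaged or dying cells.

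Many of the members' promoters hold a known response sequence. The core of the interferon-stimulated response element, GAAANNGAAA, was searched on both strands from 250 bases before to 50 bases after each RefSeq gene start (GRCm38.p6). Of the 38 members, 29 had such a window, and 15 of these 29 genes held the core (51.7%), against 3.99% of 27025 genes with a window. By window the shares were 18 of 35 and 3.44% of 32851. When 1 more base, C or T, was required after the core, 14 of 35 member windows (40%) and 1.35% of all windows held it. A match is a run of letters and not a measured binding site. The following 7 stretches of 40 bases show the core in members that the results below turn on or count. They are written along the gene's strand, and the capitals mark the core on that strand or its reverse complement. Overlapping copies occur in Isg15 and Bst2 and a further copy in Ifit1 and Ifit3, and 1 copy of each is marked.
Isg15, chr4:156200866-156200905, minus strand, core beginning 72 bases before the start: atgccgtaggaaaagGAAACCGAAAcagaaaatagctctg
Ifit1, chr19:34640789-34640828, plus strand, 85 bases before the start: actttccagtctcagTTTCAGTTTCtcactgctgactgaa
Ifit3, chr19:34583392-34583431, plus strand, 122 bases before the start: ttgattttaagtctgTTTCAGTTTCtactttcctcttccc
Rsad2, chr12:26456548-26456587, minus strand, 120 bases before the start: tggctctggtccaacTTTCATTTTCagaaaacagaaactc
Oas3, chr5:120777710-120777749, minus strand, 75 bases before the start: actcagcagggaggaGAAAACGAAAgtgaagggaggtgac
Bst2, chr8:71537572-71537611, minus strand, 124 bases before the start: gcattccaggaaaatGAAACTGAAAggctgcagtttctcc
Ddx60, chr8:61928019-61928058, plus strand, 53 bases before the start: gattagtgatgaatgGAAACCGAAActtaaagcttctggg
Ifit3b holds the same 40 bases as Ifit3 at chr19:34607788-34607827, and the 5 IFIT genes lie between bases 34550694 and 34650009 of chromosome 19 (mm10). Reads of such near copies (Ifit3 and Ifit3b, Ifit1 and Ifit1bl1, Oas1a and its relatives) may be assigned to either gene, so their single values are uncertain. Parp9 (chr16, 35938470 to 35972605) and Dtx3l (35926511 to 35939151, opposite strand) overlap at their starts.

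The libraries held 8323896 to 10591577 UMIs, where a UMI marks 1 captured transcript, and 65298 barcodes passed as cells (200 to 7000 genes, mitochondrial UMIs no more than 10%). A median cell held 3862 to 4049 UMIs in batch 1 and 595 to 1142 in batch 2, with the highest median of batch 2 in WT 5. Actb took 1.99% to 2.27% of the UMIs of cells in batch 1 and 8.77% to 17.0% in batch 2 and was left out of all totals. Of all cells, 1065 carried 1 of 532 barcodes found in more than 1 library. Ago1, the deleted gene, had 189 UMIs in all WT cells and 183 in all KO cells. In the 160 endothelial-like cells, the cells in which it was deleted, it had 0 UMIs in both groups (27830 and 43019 UMIs in all, where a count of 0 allows up to 108 and 69.7 CPM at 3 counts), so the deletion could not be checked. Cells were grouped into 55637 tumor-like, 1998 macrophage-like, 978 T-like, 786 stromal-like (425 fibroblast-like, 201 pericyte-like and 160 endothelial-like) and 286 monocyte-like cells, with members kept out of the clustering. A further 3921 cells, all of batch 2, were set aside as mixtures with tumor RNA, and the remaining cells were of other classes or unnamed. The tumor markers took 10280 to 21110 CPM in tumor-like cells. They still took 1009 to 3567 CPM in T-like, 4581 to 7595 CPM in stromal-like and 1787 to 14760 CPM in monocyte-like cells. Among monocyte-like cells of batch 2 they exceeded the monocyte markers in every library used but WT 5. In WT 3 and KO 1 they took 13480 and 14760 CPM, against 4297 and 2433 CPM of monocyte markers. The part of this tumor RNA in the levels below was not tested. Macrophage markers took 15560 and 15660 CPM in macrophage-like cells of batch 1 and 2228 to 4941 CPM in those of batch 2.

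The summed level of the members, in counts per 1000000 UMIs (CPM), was lowest in tumor-like cells and highest in monocyte-like cells. In tumor-like cells it was 1043 in WT and 1297 in KO of batch 1. Across batch 2 it was 821 (WT 1), 948 (WT 3), 1124 (WT 4) and 508 (WT 5), against 1173 (KO 1), 1288 (KO 2+3), 1101 (KO 4) and 1087 (KO 5+6). The WT values thus spread more than the KO values, and WT 4 lay above KO 4 and KO 5+6. The means were 889 ± 241 CPM in WT and 1189 ± 99.6 CPM in KO (SD, n = 5 each), a log2 ratio within batch of 0.47, with 0.31 in batch 1 and 0.51 in batch 2. Without WT 5 the log2 ratio was 0.29 and without WT 4 it was 0.58.

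Macrophage-like cells had 7300 (WT) and 8217 CPM (KO) in batch 1. Their level in batch 2 was 2659 to 5582 CPM in WT and 3881 to 4756 CPM in KO, so the KO range lay inside the WT range (log2 ratio 0.22, with 0.11 without WT 1 and 0.39 without WT 4). The level was above that of tumor-like cells in 10 of 10 libraries, with tumor-like cells at a median of 0.248 of the macrophage-like level. Monocyte-like cells had 8093 and 14830 CPM in batch 1, 4297 to 7149 CPM in 3 WT libraries and 5028 to 11140 CPM in 4 KO libraries of batch 2 (log2 ratio 0.54). Library WT 4 had 5 such cells and was left out. Monocyte-like cells were above macrophage-like, T-like and stromal-like cells in 9 of 9 libraries. T-like cells had 6756 and 6129 CPM in batch 1, with WT the higher, and 1316 to 3480 CPM in WT and 2166 to 3577 CPM in KO of batch 2. Their log2 ratio was −0.14 in batch 1 and 0.30 in batch 2, and the pooled 0.21 fell to −0.0066 without WT 4, which held 19 T-like cells. Stromal-like cells had 2468 and 3188 CPM in batch 1, and 1355 to 2379 CPM in WT and 1987 to 2445 CPM in KO of batch 2 (log2 ratio 0.35).

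The order of the classes was monocyte-like, macrophage-like, T-like, stromal-like and tumor-like. Macrophage-like cells were above T-like cells in 9 of 10 libraries and above stromal-like cells in 10 of 10, and T-like cells were above stromal-like cells in 8 of 10, so T-like cells were not set apart from either neighbour in every library. The same sum in barcodes with at most 50 UMIs, which hold mostly free RNA, was 999 to 1854 CPM in WT and 1158 to 1609 CPM in KO (log2 ratio 0.12). It was lowest in WT 5 and highest in WT 4, as the sum in tumor-like cells of WT was. Tumor-like cells lay below it in 8 of 8 libraries of batch 2 and above it in 2 of 2 of batch 1, at a median of 0.785 of its level. How much of the members' UMIs in tumor-like cells was free RNA was not tested.

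**Figure D1:**
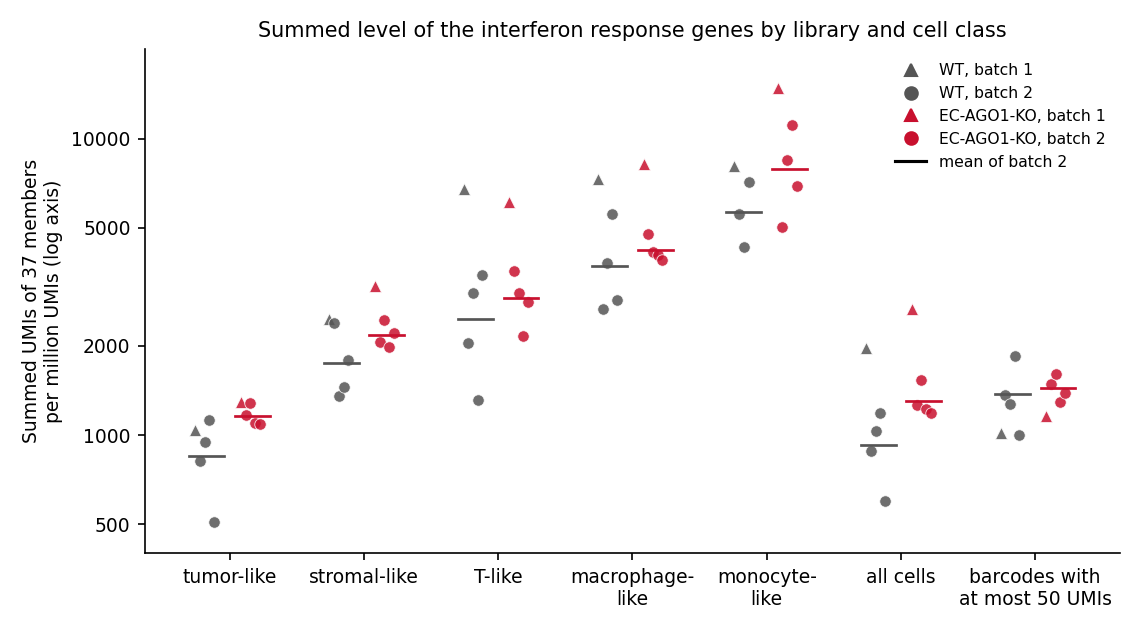
Summed level of the 37 members in each library (vertical axis, CPM on a log scale) by cell class, over all cells and in barcodes with at most 50 UMIs, in WT (grey) and KO (red), with triangles for batch 1, circles for batch 2 and lines for the mean of batch 2. Tumor-like cells sit lowest of the classes, and in batch 2 the WT points run from 508 to 1124 CPM and the KO points from 1087 to 1288 CPM.

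The UMIs of the sum came from different genes in different classes. Among tumor-like cells, Bst2 gave 12.2% of the member UMIs, Dtx3l 11.1%, Herc6 8.40% and Usp18 5.93%. Bst2 (tetherin) holds budding virus at the cell surface, DTX3L is a ubiquitin ligase that works with PARP9, HERC6 is the mouse ligase that attaches ISG15, and USP18 removes ISG15 and damps the receptor. For macrophage-like cells Ifi27l2a gave 27.7% and Isg15 13.8%, and for monocyte-like cells they gave 28.5% and 13.1%. T-like cells were led by Ifi27l2a (21.1%), Epsti1 (16.1%) and Dtx3l (12.9%), and stromal-like cells by Ifi27l2a (10.9%) and Slfn5 (8.88%). These shares mix the batches, and the batches differed by gene.

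Some members differed between the batches by far more than between WT and KO. Isg15, a ubiquitin-like protein attached to other proteins, had a mean of 180 CPM in tumor-like cells of batch 1 and 13.4 CPM in those of batch 2, which was 13.4-fold lower. Ifi27l2a, a small membrane protein of the interferon response, was 7.11-fold lower in batch 2 and Bst2 3.13-fold lower. Epsti1 went the other way, from 2.02 to 15.9 CPM, as did Herc6 (3.95-fold higher) and Dtx3l (3.66-fold higher). In all, 9 members were over 2-fold lower in batch 2, 8 were over 2-fold higher and 20 lay between. In macrophage-like cells Ifi27l2a was 55.8-fold lower and Isg15 26.9-fold lower in batch 2. Sequencer, depth and tumors changed together between the batches and cannot be told apart, so every comparison below was made within batch.

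KO against WT was first compared in tumor-like cells, in which 35 members passed the filter on low counts and were tested. Of these, 33 (94.3%) had a log2 fold change above 0, where 50.9% of all 13072 genes tested did, and their median was 0.40 (all genes 0.004). No member passed an adjusted p of 0.05 in the edgeR quasi-likelihood test with Benjamini-Hochberg adjustment, nor did any other gene (0% of genes), and the adjusted p of the members ran from 0.817 to 1.00. At an unadjusted p under 0.05 there were 14 members (40%), all of them higher in KO, against 5.9% of all genes in either direction and 3.08% in that direction. They were Cmpk2, Dtx3l, Eif2ak2, Ifi44, Ifit1, Isg15, Isg20, Oas2, Oas3, Oasl2, Parp12, Rsad2, Rtp4 and Xaf1. DESeq2 called 0 members and put 13 under the unadjusted limit, with 644 of all 13072 genes. All 4 KO libraries of batch 2 were above all 4 WT libraries for 7 members (20%; Cmpk2, Ifi44, Ifit1, Oas3, Oasl2, Phf11d and Rtp4), as for 2.69% of all genes.

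**Figure D2:**
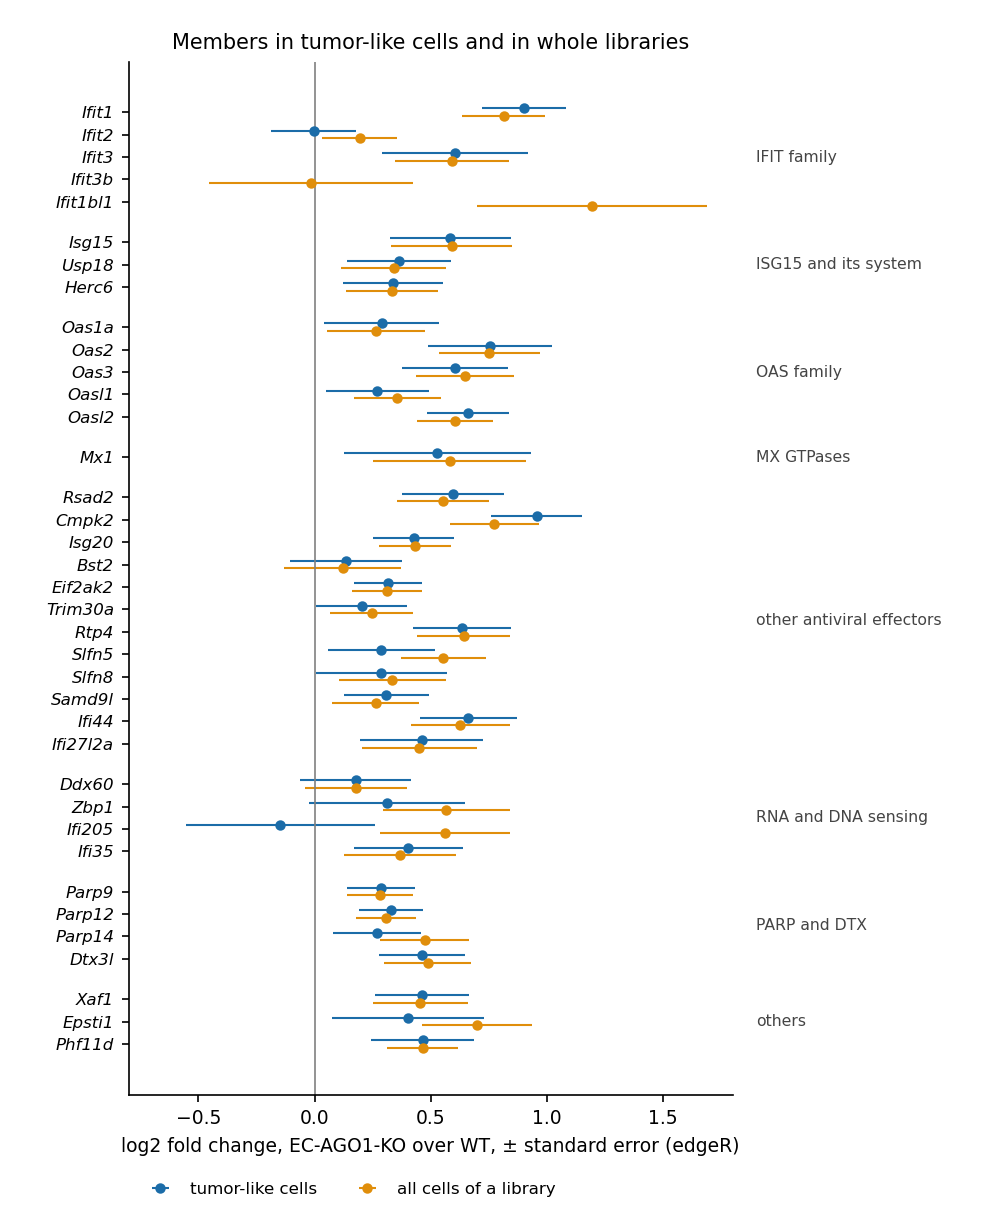
Log2 fold change of KO over WT with its SE (horizontal axis) for each member tested, grouped by role, in tumor-like cells (blue) and over all cells of a library (orange), from edgeR with batch as a covariate. Of the points, 33 of 35 lie above 0 in tumor-like cells and 36 of 37 over all cells.

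The IFIT proteins bind viral RNA and hold back its translation. In tumor-like cells Ifit1 had 30.6 (WT) and 48.7 CPM (KO) in batch 1. Within batch 2 it was 11.4 (WT 1), 14.5 (WT 3), 11.6 (WT 4) and 5.98 (WT 5), against 22.8 (KO 1), 21.6 (KO 2+3), 21.8 (KO 4) and 22.3 CPM (KO 5+6). The KO libraries lay close together and above the WT libraries of their batch. The log2 fold change was 0.90 ± 0.18 (SE), with an unadjusted p of 0.000102 and an adjusted p of 0.817 by edgeR. Ifit3 was at 4.40 and 8.71 CPM in batch 1, 0.897 to 2.85 CPM in WT and 1.46 to 2.89 CPM in KO of batch 2, with overlapping groups (0.60 ± 0.31). Ifit2 did not share this: it was at 9.13 and 11.9 CPM in batch 1, 7.62 to 14.4 CPM in WT and 9.85 to 12.5 CPM in KO of batch 2 (−0.00 ± 0.18), and its sign turned in several alternative settings. Ifit3b (9 WT and 14 KO UMIs) and Ifit1bl1 (8 and 11) did not pass the filter on low counts and were not tested.

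The OAS proteins make short 2′-5′-linked adenylates that switch on RNase L. All 5 had a log2 fold change above 0, with a median of 0.61, and 3 had an unadjusted p under 0.05. Oas2 was at 2.03 and 2.18 CPM in batch 1. It was 4.42 (WT 1), 5.91 (WT 3), 6.30 (WT 4) and 2.84 (WT 5) in batch 2, against 6.03 (KO 1), 12.02 (KO 2+3), 7.90 (KO 4) and 10.3 CPM (KO 5+6). Only KO 1 lay below a WT library of batch 2 (0.76 ± 0.27). Oasl2, a relative of the OAS enzymes, was at 16.1 and 26.0 CPM in batch 1. In batch 2 it was 23.4, 23.6, 30.0 and 13.2 CPM in the WT libraries and 33.8, 39.6, 38.7 and 35.8 CPM in the KO libraries, in the order just used. The groups did not overlap (0.66 ± 0.18).

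Of the ISG15 system, all 3 members were higher. Isg15 was at 149 and 211 CPM in batch 1, and at 8.68, 7.75, 19.7 and 5.23 CPM in WT and 20.5, 17.8, 10.6 and 16.9 CPM in KO of batch 2. WT 4 lay among the KO libraries (0.58 ± 0.26). Usp18 was at 17.1 and 22.6 CPM in batch 1, 32.6 to 97.7 CPM in WT and 57.9 to 102 CPM in KO of batch 2 (0.36 ± 0.22). Herc6 was at 23.8 and 28.7 CPM in batch 1, 38.1 to 113 CPM in WT and 107 to 142 CPM in KO of batch 2 (0.34 ± 0.22). For Usp18 and Herc6 the groups overlapped, and the low end of WT was WT 5 in both.

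Among the other effectors, all 12 had a log2 fold change above 0 (median 0.37) and 6 an unadjusted p under 0.05. Cmpk2, a mitochondrial nucleotide kinase, and Rsad2 (viperin), which makes a chain-terminating nucleotide, are neighbours on chromosome 12 (mm10, 26469204 to 26479837 and 26442746 to 26456452). Cmpk2 had the largest log2 fold change of the members tested in tumor-like cells (0.96 ± 0.20, unadjusted p 0.000129). It was at 6.59 and 11.3 CPM in batch 1, at 5.997, 6.73, 6.87 and 3.74 CPM in WT and at 11.9, 14.5, 10.2 and 12.1 CPM in KO of batch 2, with no overlap. Rsad2 was at 33.8 and 48.5 CPM in batch 1, at 24.6, 31.8, 18.3 and 9.26 CPM in WT and at 30.1, 32.5, 38.9 and 32.2 CPM in KO of batch 2. WT 3 lay above KO 1 (0.59 ± 0.22). Ifi44, a cytoplasmic interferon-induced protein, was at 29.2 and 36.8 CPM in batch 1, 19.3 to 55.9 CPM in WT and 62.5 to 70.4 CPM in KO of batch 2, with no overlap (0.66 ± 0.21). Bst2 was at 268 and 279 CPM in batch 1, at 46.7, 70.1, 151 and 54.1 CPM in WT and at 107, 95.2, 80.0 and 95.7 CPM in KO of batch 2. Its highest value of batch 2 was in WT 4 (0.14 ± 0.24), and without WT 4 its log2 fold change was 0.53. Ifi27l2a was at 66.8 and 94.7 CPM in batch 1, 4.63 to 14.1 CPM in WT and 9.15 to 17.7 CPM in KO of batch 2 (0.46 ± 0.26).

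**Figure D3:**
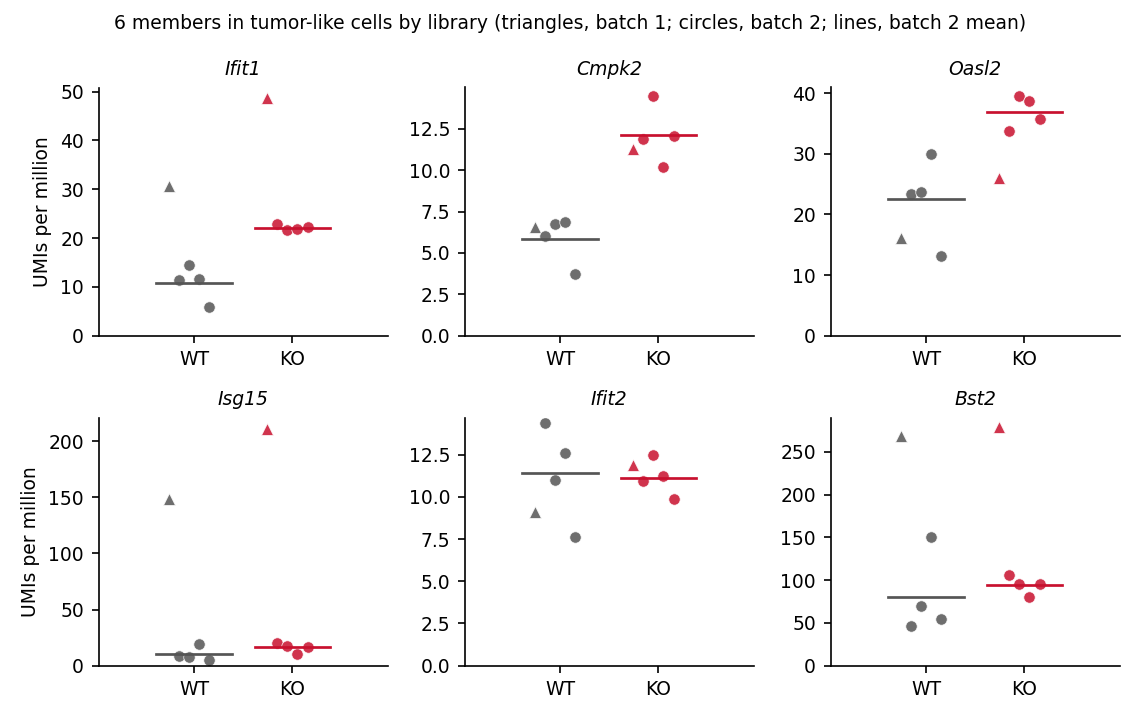
Level (CPM, vertical axis) of Ifit1, Cmpk2, Oasl2, Isg15, Ifit2 and Bst2 in tumor-like cells of each library, by batch and group. In batch 2 the KO points of Ifit1, Cmpk2 and Oasl2 lie above all WT points, those of Isg15 and Bst2 overlap with WT 4, and those of Ifit2 lie within the WT range.

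Mx1, a GTPase that traps incoming virus, was at 1.18 and 3.76 CPM in batch 1. In batch 2 it was 2.21, 2.04, 7.06 and 1.64 CPM in WT and 5.66, 2.23, 5.41 and 3.22 CPM in KO, with WT 4 the highest of all (0.53 ± 0.40, and 1.15 without WT 4). Of the 4 genes listed under sensing, 3 were above 0 and none had an unadjusted p under 0.05 in edgeR. Ifi205, a DNA-binding protein of the IFI200 family, was at 1.86 and 2.58 CPM in batch 1, 1.05 to 5.91 CPM in WT and 2.01 to 4.45 CPM in KO of batch 2 (−0.15 ± 0.41), the lowest log2 fold change of the members tested. All 4 PARP and DTX genes were above 0 (median 0.31). Dtx3l was at 33.0 and 41.2 CPM in batch 1, at 96.6, 145, 131 and 67.1 CPM in WT and at 178, 199, 135 and 134 CPM in KO of batch 2, where WT 3 lay above KO 4 and KO 5+6 (0.46 ± 0.19). The remaining 3 genes (Xaf1, Epsti1 and Phf11d) were above 0, with a median of 0.46.

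Most members were lowest in the same library. In tumor-like cells of batch 2, WT 5 was the lowest of the 8 libraries for 31 of 35 members (88.6%), whereas it was the lowest for 12.6% of all genes tested. KO 2+3, which pools 2 tumors, was the highest for 19 members (54.3%), against 13.7% of all genes. Among WT, only WT 4 (5 members) and WT 1 (1 member) were the highest of the 8 for any member. Without WT 5, 9 members had an unadjusted p under 0.05 in edgeR, with 887 of all 13040 genes. Without WT 4, 23 members did, with 884 of 13032 genes. In neither case was any member called. Of the markers of other cells in tumor-like cells, the 16 macrophage markers summed to 37.96 to 74.7 CPM in WT and 43.0 to 56.1 CPM in KO. The 14 T markers summed to 6.76 to 36.1 and 5.55 to 40.3 CPM, and the 13 monocyte markers to 80.5 to 199 and 98.5 to 250 CPM, with none of these markers at 0 in all libraries. The T and monocyte sums were lowest of batch 2 in WT 5 (16.4 and 80.5 CPM), while its macrophage sum (51.4 CPM) was the highest of the WT libraries of batch 2 and its endothelial sum (32.0 CPM) the highest of batch 2. WT 5 also had the fewest UMIs in barcodes of at most 50 UMIs (843290, against 1395556 to 1733026 in the other libraries of batch 2). The part of these in the result was not tested.

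**Figure D4:**
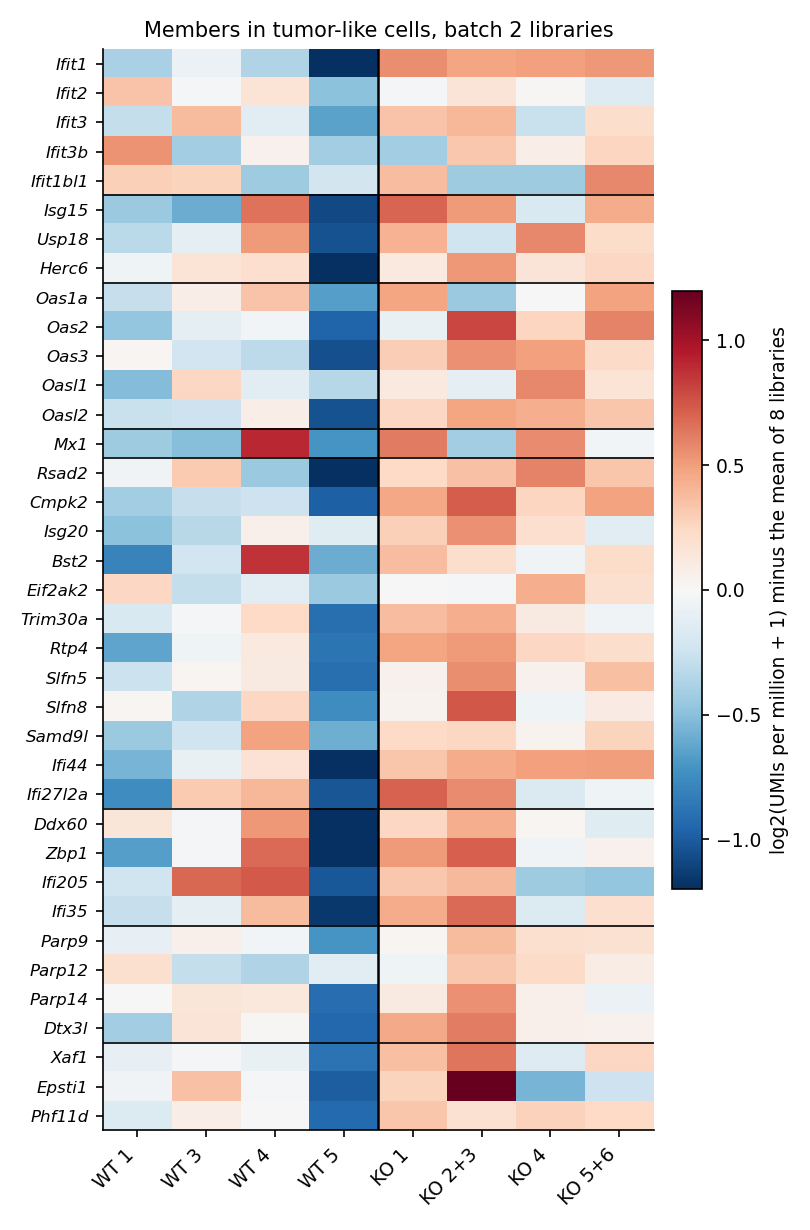
Level of the 37 members in tumor-like cells of the 8 libraries of batch 2 (columns), as log2(CPM + 1) minus the gene's mean over these libraries, with values beyond the ends of the scale drawn in the end colour. Among the 35 members tested, WT 5 is the lowest library for 31 and KO 2+3 the highest for 19.

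Among single tumor-like cells the members were sparse. With each cell thinned to 500 UMIs (18524 WT and 16391 KO cells used, 12175 and 8547 shallower cells left out), 59.2% to 79.8% of cells per library had no member UMI. The mean was 0.578 UMIs per cell in WT and 0.668 in KO of batch 1. It was 0.408, 0.454, 0.542 and 0.268 in WT and 0.586, 0.664, 0.557 and 0.531 in KO of batch 2, where KO 5+6 lay just below WT 4. Cells with 3 or more member UMIs made up 4.61% and 7.07% in batch 1. They made up 2.82%, 3.24%, 3.83% and 1.54% in WT and 4.06%, 5.71%, 4.74% and 4.39% in KO of batch 2, with no overlap at this depth. With cells thinned to 1000 UMIs the groups did overlap, since WT 4 (14.3%) lay above the 4 KO libraries of batch 2 (11.3% to 14.2%). Before thinning the mean of batch 2 was 0.572 to 0.675 UMIs in WT and 0.864 to 1.20 in KO, and that of batch 1 was 10.8 and 17.0. The Fano factor, the variance over the mean, which is 1 for independent counts, was 1.42 to 1.97 with a median of 1.65. The 1% of cells with most member UMIs held 8.50% to 14.0% of them. Tumor-like clusters of batch 2 ran from 786 to 1295 CPM.

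**Figure D5:**
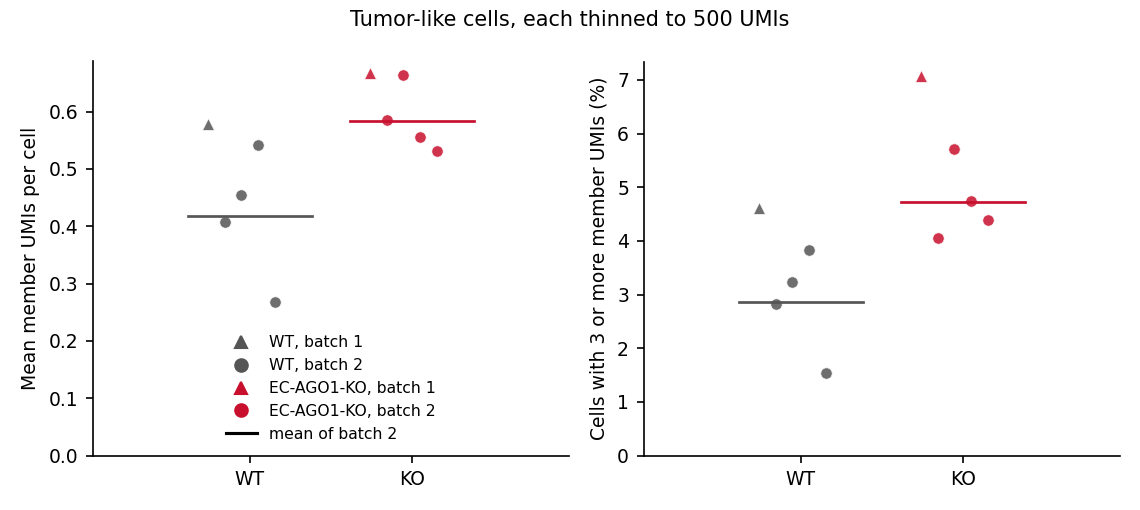
Tumor-like cells thinned to 500 UMIs, with the mean member UMIs per cell on the left and the percentage of cells with 3 or more member UMIs on the right. Points are libraries (triangles for batch 1, circles for batch 2) and lines are means of batch 2, and on the right each KO library lies above each WT library of its batch at this depth, which did not hold at 1000 UMIs.

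In macrophage-like cells 15 members were tested and 10 (66.7%) were above 0 (44.6% of 2204 genes), with a median of 0.13 (all genes −0.03). None was called (0% of genes) by edgeR or by DESeq2, and 1 (6.67%, Parp14) had an unadjusted p under 0.05 in each, against 5.08% of genes by edgeR. Parp14, a mono-ADP-ribosyltransferase that enhances STAT6 signalling, was at 165 and 246 CPM in batch 1. In batch 2 it was 203 (WT 1), 341 (WT 3), 458 (WT 4) and 235 (WT 5), against 627 (KO 1), 598 (KO 2+3), 508 (KO 4) and 631 CPM (KO 5+6), with no overlap. Its log2 fold change was 0.86 ± 0.21, with an unadjusted p of 0.000136 and an adjusted p of 0.174 by edgeR. It passed the adjusted limit when either library of batch 1 was left out. Both of these fits compare WT and KO within batch 2 only, so they are not separate checks. When batch 2 was fitted alone, no member and no other gene was called (1317 genes tested, 2913 in each of those fits).

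The other leading members did not follow Parp14 in macrophage-like cells. Isg15 was at 1027 and 1356 CPM in batch 1 and at 10.7 to 91.5 CPM in WT and 37.1 to 64.9 CPM in KO of batch 2 (0.37 ± 0.28). Ifi27l2a was at 2430 and 2426 CPM in batch 1 and at 0 to 64.1 and 33.9 to 76.9 CPM in batch 2 (−0.04 ± 0.29). Epsti1 was at 285 and 331 CPM in batch 1, 426 to 824 CPM in WT and 667 to 743 CPM in KO of batch 2 (0.24 ± 0.19). Ifit3 (−0.34 ± 0.31) and Rsad2 (−0.19 ± 0.24) were below 0, and Ifit3 was at 366 CPM in WT 4 and at 53.5 CPM or less in the other WT libraries of batch 2. Dtx3l (0.35 ± 0.23), Ddx60, a helicase of RNA sensing (0.35 ± 0.26), Oasl2 (0.30 ± 0.29), Bst2 (0.13) and Trim30a, a TRIM protein that damps NF-kB signalling (−0.10 ± 0.25), all had overlapping groups in batch 2. Ifit1 (108 WT and 138 KO UMIs), Usp18 (54 and 72) and Mx1 (53 and 90) did not pass the filter on low counts and were not tested. The tumor markers summed to 1760 (WT) and 1818 CPM (KO) in batch 1. In batch 2 they summed to 6340 to 9072 CPM in WT and 4427 to 6443 CPM in KO. There they exceeded the macrophage markers (2228 to 4941 CPM) in every library. The T markers summed to 0 to 162 CPM in WT and 8.45 to 111 CPM in KO over both batches. Their part in these values was not tested.

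A small set of macrophage-like cells of batch 1 had a high level of the members. A sub-cluster of 43 cells (14 WT, 29 KO) had 28000 CPM, while the other 556 macrophage-like cells of that batch had 6613 CPM. The members were kept out of the clustering, but Ifi208, a leading gene of this sub-cluster, was not. Its level was the highest of the macrophage-like sub-clusters of batch 1, so a lower level outside it follows from singling it out. Outside this sub-cluster the level was 6578 CPM in WT and 6643 CPM in KO, where the whole class had 7300 and 8217 CPM. Of the monocyte-like cells of batch 1, a sub-cluster of 72 cells had 14040 CPM and the other 37 cells 6384 CPM. With 1 library per group in that batch, these values had no replicate.

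Only Ifi27l2a could be tested in monocyte-like cells (0% of 191 genes called, 2.09% under an unadjusted p of 0.05, neither limit passed by Ifi27l2a in edgeR or DESeq2). Other clusterings drew a different set of cells as monocyte-like and gave more members a test. At resolution 0.5 the class was larger, with 130 WT and 145 KO cells in batch 1, against 62 and 47 at resolution 1. WT 4, with 16 such cells, then entered. At resolution 2 the class held 77 and 58 cells in batch 1. At resolution 0.5 there were 8 members tested, all above 0 and 3 with an unadjusted p under 0.05 in edgeR. Of all 1029 genes tested there, 47.13% were above 0 and 36 had such a p. At resolution 2 there were 4 members, all above 0 and 3 with such a p. Of all 322 genes, 48.45% were above 0 and 6 had such a p. With no filter on low counts 36 of 37 members were above 0 and 7 had such a p. In that fit 59.71% of all 11699 genes were above 0 and 363 had such a p. No member was called in any of these fits. Ifi27l2a was at 3510 and 4504 CPM in batch 1 and at 0 to 137 CPM in the libraries of batch 2 (0.38 ± 0.43). Isg15, which was not tested, had 778 (WT) and 2916 CPM (KO) in batch 1, with 1 library per group. In batch 2 it was at 0 to 179 CPM in WT and 0 to 137 CPM in KO, with overlapping groups. Parp14, which did not pass the filter on low counts, was at 263 and 439 CPM in batch 1, at 641, 148 and 358 CPM in WT 1, WT 3 and WT 5, and at 649, 1106, 671 and 889 CPM in KO of batch 2. The KO values lay above the WT values, by a small margin between WT 1 and KO 1. Epsti1 was at 357 and 698 CPM in batch 1, 1069 to 1334 CPM in WT and 649 to 2013 CPM in KO of batch 2. Each library of batch 2 held 12 to 60 such cells here, so single UMIs weighed heavily.

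In T-like cells 5 members were tested, 2 above 0 and 3 below, with a median of −0.32 (all genes −0.03). The median was −0.0059 without KO of batch 1, 0.06 at resolution 2 and 0.34 in batch 2 alone, where 2 members were tested. None passed an adjusted (0% of 1030 genes) or unadjusted p of 0.05 (3.98% of genes), in edgeR or DESeq2. Dtx3l was at 205 and 280 CPM in batch 1, 285 to 696 CPM in WT and 535 to 698 CPM in KO of batch 2 (0.36 ± 0.27). Epsti1 was at 547 and 462 CPM in batch 1, 188 to 666 CPM in WT and 615 to 884 CPM in KO of batch 2 (0.14 ± 0.25). Ifi27l2a was at 2822 and 2298 CPM in batch 1 and at 0 to 173 CPM in batch 2 (−0.44 ± 0.34). Isg15 was at 616 and 486 CPM in batch 1, at 0 in the 4 WT libraries of batch 2 and at 0 to 53.5 CPM in KO (−0.32 ± 0.56), and its fold change rested on batch 1. Trim30a was at −0.62 ± 0.43. The T markers summed to 4613 to 7304 CPM in WT and 6301 to 7958 CPM in KO.

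Of the stromal-like cells, 4 members were tested, 2 above and 2 below 0, with a median of 0.03 (all genes −0.03). The median was 0.76 without WT of batch 1, 0.56 without KO of batch 1 and −0.29 without KO 5+6. None was called (0% of 1658 genes), and Dtx3l alone (25%) had an unadjusted p under 0.05 in edgeR, against 5.61% of genes, and none in DESeq2. Dtx3l was at 36.8 and 59.97 CPM in batch 1, at 294, 197, 156 and 135 CPM in WT and at 419, 419, 229 and 283 CPM in KO of batch 2 (0.74 ± 0.35, adjusted p 0.837 by edgeR). WT 1 lay above KO 4 and KO 5+6. Slfn5, a Schlafen protein, had a log2 fold change of 0.28 ± 0.33, Isg15 of −0.22 ± 0.51 and Ifi27l2a of −0.30 ± 0.45. The other 33 members did not pass the filter on low counts and were not tested. Of these, Ifit3 had 3 WT and 14 KO UMIs, Rsad2 2 and 18, and Mx1 0 and 5. Counts of the rest are not given, so these few UMIs do not stand for the untested members. Fibroblast markers summed to 34070 to 69600 CPM in WT and 28080 to 48650 CPM in KO.

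Over all cells of a library 37 members were tested, and 36 (97.3%) were above 0, against 49.3% of 14181 genes. Their median was 0.47 (all genes −0.004). None was called by edgeR (0% of genes) or by DESeq2, which called 2 other genes. An unadjusted p under 0.05 was reached by 19 members in edgeR (51.4%), all higher in KO. In edgeR 9.26% of genes reached it in either direction and 5.67% in that direction. DESeq2 put 18 members and 1203 of all 14181 genes under that limit. For 9 members (24.3%) all KO libraries of batch 2 were above all WT libraries, as for 4.16% of genes. Ifit1bl1, with 29 WT and 69 KO UMIs, had the largest log2 fold change (1.20 ± 0.49), followed by Ifit1 (0.82 ± 0.18) and Cmpk2 (0.77 ± 0.19). Ifit1 was at 44.5 and 63.2 CPM in batch 1, 6.48 to 14.5 CPM in WT and 21.1 to 23.0 CPM in KO of batch 2. Ifit3b (−0.01 ± 0.44), Bst2 (0.12) and Ddx60 (0.18) had the lowest. The summed level was 1962 and 2672 CPM in batch 1, 600 to 1186 CPM in WT and 1192 to 1535 CPM in KO of batch 2 (log2 ratio 0.52). In whole libraries more cells of a responding type and more RNA per cell cannot be told apart. The T markers summed to 45.5 to 93.1 CPM in WT and 88.1 to 278 CPM in KO (log2 ratio 1.05) and the macrophage markers to 60.2 to 1836 and 87.0 to 2359 CPM (0.37). Their part in the result was not tested.

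Upstream of the members, the interferon genes themselves were barely detected. The 11 ligand genes had 33 UMIs over all cells and none could be tested. Ifnb1, which encodes interferon beta, had 5 UMIs in WT and 1 in KO. In tumor-like cells the receptor chains had log2 fold changes of 0.01 ± 0.17 (Ifnar1) and −0.03 ± 0.18 (Ifnar2), and of 5 receptor genes tested 2 were above 0. Of 11 kinase and transcription factor genes, 7 were above 0. Those with an unadjusted p under 0.05 included Stat2 (0.47 ± 0.17) and Irf7, the factor that amplifies interferon production (0.69 ± 0.25). Stat2 was at 19.6 and 25.2 CPM in batch 1, at 45.9, 41.8, 47.3 and 25.4 CPM in WT and at 60.3, 74.3, 53.6 and 47.5 CPM in KO of batch 2, with no overlap though KO 5+6 was close to WT 4. Irf9 had a log2 fold change of 0.20 ± 0.18. In macrophage-like cells 5 genes of this list were tested and none had an unadjusted p under 0.05.

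Other induced genes outside the 38 were counted by list in tumor-like cells. Of 14 interferon-induced GTPase genes (the GBP and IRG families), 10 were tested, all 10 were above 0, with a median of 0.68, and 8 had an unadjusted p under 0.05. Among all genes tested there, 50.9% were above 0 and 5.9% had such a p. Of 10 nucleic acid sensor genes, 6 were tested, 5 were above 0 and 1 had an unadjusted p under 0.05. Of 5 brakes of the pathway, 2 were above 0 and 1 had such a p, and of 6 targets of interferon gamma 3 were tested and all 3 were above 0, none with such a p. No gene of these lists passed the adjusted limit. Over all cells 13 GTPase genes were tested, all above 0 and 11 with an unadjusted p under 0.05, and 3 of 4 targets of interferon gamma had one, where 49.3% of all genes were above 0 and 9.26% had such a p. The GBP and IRG genes and the gamma targets respond to interferon gamma as well as to type I interferon.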

How the data were processed

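For each library the deposited file holds unnormalized UMI counts by gene and barcode, empty barcodes included, which the authors made with Cell Ranger 7.1.0 on mm10 per the labels. Here cells were filtered as given above, Actb was dropped from totals, and cells were clustered with scanpy 1.11.5 and leidenalg 0.10.2 (2000 variable genes without the members and the pathway lists, 30 components, 15 neighbours, resolution 1). Clusters were named from marker lists (at least 3 markers, each 2-fold higher and in 2% of cells). A sub-cluster also needed a list of its own lineage, with at least 1 marker among its 100 leading genes. It was left unnamed where another list had at least 3 markers, and more than its own, above the rest of the lineage. Limits of this naming were changed after clusters had been seen and before WT and KO were compared. No doublet detection was run. Sub-clusters with Pvt1 at 50% or more of its level in tumor-like cells were set aside as mixtures with tumor RNA (3921 cells). These cells entered the comparison over all cells only. UMIs were summed per library and class with at least 10 cells and fitted by edgeR 4.0.16 (R 4.3.3, quasi-likelihood, TMM, filterByExpr, batch as covariate, Benjamini-Hochberg), with DESeq2 1.42.0 as an alternative. The SE is the absolute fold change divided by the square root of F. The script was tested on simulated data. Depth in batch 2 and the number of cells limit the precision, and limits for a count of 0 cover counting error only. WT and KO libraries are separate tumors or pools. The members and lists were chosen with earlier results of these data known, so the summed level has no test. For the same reason the shares of members set beside those of all genes are description only. Values were given for members called, the 3 largest and 3 smallest fold changes per comparison and the 5 most abundant per class. They were also given for Isg15, Ifit1, Ifit3, Rsad2, Mx1, Oasl2, Usp18, Bst2 and Ifi27l2a. Over all cells and in monocyte-like, T-like and stromal-like cells, some of these genes have no values here. Members named only in a count were picked after their values were seen. Of the 7 pathway lists, values were kept for Stat2, Irf9, Irf7, Ifnar1, Ifnar2 and Ifnb1, and 1 further gene of the rule is not reported here.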

Additional observations from a re-analysis of the deposited data

Results flagged for a closer look

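In 166 groups of 4 libraries of batch 2, the highest or lowest library of a named member was set against the others by Dixon's 95% limit. The limit was passed in 14 groups. Chance passes it in about 1 of 20 groups of continuous values, but any value above 0 passes it where the other libraries are at 0. Such groups are among the 14, so their number cannot be set against that rate. In WT 4, Mx1 was at 7.058 CPM in tumor-like cells, against 1.64 to 2.21 CPM in the other WT libraries, and in macrophage-like cells Ifit3 was at 366 CPM and Bst2 at 457.5 CPM, in a library with 33 such cells. Among monocyte-like cells Usp18 was at 410.3 CPM in KO 5+6, and Isg15 was at 0 in KO 1, against 133 to 137 CPM in the other KO libraries. Among T-like cells Ifit1 was at 13.29 CPM in KO 2+3, Rsad2 at 43.23 CPM in WT 3 and Oasl2 at 116 CPM in WT 5, with the other libraries of each group at 0. Usp18 was at 203.3 CPM in KO 1 and Isg15 at 53.49 CPM in KO 4, also in T-like cells. Among stromal-like cells Ifit3 and Ifi27l2a were each at 19.25 CPM in WT 5 and Rsad2 at 26.73 CPM in WT 1, with the other WT libraries at 0. Over all cells Herc6 was at 145.7 CPM in KO 2+3, against 109 to 114 CPM in the other KO libraries.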

How the results depend on the processing

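With no filter on low counts, 4 members were called in tumor-like cells (31 of 26869 genes) and 7 over all cells (242 of 27390 genes). Macrophage-like cells gave 0 to 1 called member with 1 library left out, the 1 being Parp14 without either library of batch 1. No member was called in macrophage-like cells of batch 2 alone. As a mean of log2(CPM + 1) over members, the difference was 1.85 in monocyte-like and 0.96 in T-like cells, and the Fano factor at 1000 UMIs was 2.20. The cause of these shifts was not tested. Scaled by library size alone, 639 of 808 genes at an unadjusted p under 0.05 were higher in KO in tumor-like cells (403 of 771 with TMM) and 1217 of 1352 over all cells (804 of 1313), with 18 and 26 members under that limit. Without a batch term there were 3 members in both comparisons, with 49 of all 11598 genes in tumor-like cells and 141 of 12450 over all cells. Without the pooled libraries there were 8 and 10 members, with 437 of 12991 and 627 of 14228 genes. Over all cells without WT 4 there were 29 members, with 1384 of 14272 genes.

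The replicate numbers pair WT 1 with KO 1 and WT 4 with KO 4 by number only (correlations of deviations −0.198 and −0.267 in tumor-like cells). With the replicate block on those libraries and batch 1, 0 members were called. In tumor-like cells 4 members had an unadjusted p under 0.05 in edgeR, with 466 of all 12785 genes. Over all cells 3 members did, with 621 of 13975 genes. In tumor-like cells 27 of 35 members were higher in KO, as were 48.3% of all genes. Under the replicate block the log2 fold change was 0.0084 for Ifi27l2a and 0.17 for Trim30a in macrophage-like cells and −0.053 for Ddx60 over all cells.

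The signs of log2 fold changes near 0 turned as follows. Ifit2 in tumor-like cells was 0.0011 with DESeq2, 0.049 with library size alone, 0.0062 with no batch term, 0.023 without the pooled libraries, 0.025 with at least 500 genes per cell, and −0.13 to 0.11 with 1 library left out (0.052 without KO 5+6). With 1 library left out, Ifi205 ran from −0.43 to 0.14 (0.0040 without KO 5+6) and Bst2 from −0.018 to 0.53 in tumor-like cells. Ifi27l2a in macrophage-like cells was 0.014 with DESeq2, 0.062 with library size alone, 0.058 with no filter, and −0.12 to 0.32 with 1 library left out (−0.099 without WT 1). Trim30a in macrophage-like cells was 0.076 without the pooled libraries, 0.085 at resolution 2, and −0.20 to 0.018 with 1 library left out (0.0091 without KO 5+6). Bst2 in macrophage-like cells was −0.12 with DESeq2 and −0.093 to 0.26 with 1 library left out. In T-like cells Isg15 ran from −0.44 to 2.32, the latter without WT of batch 1, and Epsti1 was −0.060 without the pooled libraries. Ifi27l2a in stromal-like cells ran from −0.42 to 1.49 (−0.39 without WT 3, and the highest without WT of batch 1). Over all cells Ifit3b was 0.058 with library size alone and ran from −0.19 to 0.15, Ddx60 from −0.00053 to 0.37 and Bst2 from −0.024 to 0.52. Of the values of named members under all alternatives, 935 kept their direction and side of the limit, 43 turned and 11 passed the limit. Fits with at least 500 genes per cell in macrophage-like, monocyte-like, T-like and stromal-like cells, and the block in monocyte-like cells, were not run.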
